A study of Homo sapiens with 6 samples.

Results

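The genes described here encode the ligands, receptors and processing protease of the interleukin-1 (IL-1) family, measured by RNA sequencing in SK-OV3 cells, an established human ovarian cancer cell line, after transfection with an siRNA pool against the long noncoding RNA PVT1. They are 10 of the 59653 genes in the table of counts and were taken by gene symbol. The agonist ligands were IL1A, IL1B, IL18 and IL33, the receptor antagonist IL1RN, the receptors IL1R1, IL1RL1 and IL1R2 with the co-receptor IL1RAP, and the protease CASP1. These members were selected on earlier results of the same siPVT1 against siControl counts, so their values in that comparison are given as a description, with their errors and without a test.

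The study had 6 libraries from cells kept in full serum, with 3 siControl replicates that received a non-targeting pool and 3 siPVT1 replicates that received a pool of 4 siRNAs against PVT1, and every library was made 48 h after transfection. All cells came from 1 cell line, and 1 pool targeted PVT1, so that other effects of the pool and those of lowering PVT1 cannot be told apart. The labels do not say that replicates came from separate cultures, and the errors and p-values below measure only the spread between these libraries.

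IL-1 alpha (IL1A) and IL-1 beta (IL1B) bind the receptor IL1R1, which then recruits IL1RAP, and the receptor pair signals through the adaptor MYD88, kinases of the IRAK family and the ubiquitin ligase TRAF6 to the transcription factor NF-kB. IL1RN encodes an antagonist that occupies IL1R1 without recruiting IL1RAP, and IL1R2 is a decoy that binds ligand and lacks a signalling domain. Caspase-1, the product of CASP1, cuts the precursors of IL-1 beta and IL-18 after it has been activated in an inflammasome, whereas IL-1 alpha and IL-33, the ligand of IL1RL1, are active without that cut. RNA was measured here, and neither cleavage nor release of the proteins was. Tumour epithelium, fibroblasts and myeloid cells are known sources of these ligands in ovarian cancer.

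Of the 10 genes, 6 lie on chromosome 2 (GRCh38, positions from GENCODE v44) in 2 clusters of 3 genes. The ligand cluster held IL1A (chr2:112773925-112784493, minus strand), IL1B (chr2:112829751-112836816, minus strand) and IL1RN (chr2:113099315-113134016, plus strand). The receptor cluster held IL1R2 (chr2:101991960-102028544), IL1R1 (chr2:102064544-102179874) and IL1RL1 (chr2:102311502-102352037), all on the plus strand. IL1RAP (chr3:190514051-190659750) and IL33 (chr9:6215786-6257983) lie on the plus strand, and IL18 (chr11:112143253-112164096) and CASP1 (chr11:105025397-105035250) on the minus strand. The counts of each gene were summed over its annotated transcripts, which numbered from 1 for IL1A to 22 for CASP1.

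The 250 bases before the start of the IL-1 agonist genes and of the gene of their antagonist are shown, since these genes of 1 cluster had the highest and the lowest counts of the 10 genes. The sequences are from RefSeq on GRCh38.p14, read along the gene's strand, and 8 of the 10 genes had an entry, with none for IL18 and CASP1. Capitals mark matches on either strand to AP-1 (TGANTCA), C/EBP (TTNNGNAA) and TATA box (TATAAA) letters. A fixed NF-kB consensus, whose letters are not printed here, was searched in the same way. The windows are chr2:112784494-112784743 (minus strand) for IL1A, chr2:112836780-112837029 (minus strand) for IL1B and chr2:113127348-113127597 (plus strand) for IL1RN.
IL1A: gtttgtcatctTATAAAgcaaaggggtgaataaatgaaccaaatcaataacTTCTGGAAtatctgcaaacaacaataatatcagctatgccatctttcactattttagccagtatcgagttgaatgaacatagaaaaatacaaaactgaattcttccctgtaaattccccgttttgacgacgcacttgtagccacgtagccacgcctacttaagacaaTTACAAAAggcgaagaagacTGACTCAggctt
IL1B: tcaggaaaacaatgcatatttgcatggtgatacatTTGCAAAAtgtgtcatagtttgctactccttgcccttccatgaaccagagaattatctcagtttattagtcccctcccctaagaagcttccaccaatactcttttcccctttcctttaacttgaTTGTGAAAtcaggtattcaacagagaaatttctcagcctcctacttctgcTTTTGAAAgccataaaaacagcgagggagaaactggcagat
IL1RN: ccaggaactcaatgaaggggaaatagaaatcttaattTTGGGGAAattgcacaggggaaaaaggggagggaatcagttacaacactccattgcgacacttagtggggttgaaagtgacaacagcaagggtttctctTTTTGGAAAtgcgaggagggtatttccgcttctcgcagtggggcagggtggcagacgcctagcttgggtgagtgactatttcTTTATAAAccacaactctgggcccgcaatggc
The IL1A window held 1 AP-1 match from -12 to -6 relative to the start, 2 C/EBP matches and 1 TATA box match from -239 to -234. The IL1B window held 3 C/EBP matches, at -215, -91 and -41. The IL1RN window held 3 C/EBP matches, 2 of which overlapped each other, and 2 overlapping TATA box matches, 1 on each strand, between -32 and -25. Among 35116 windows of the same length, 33.2% held a C/EBP match, 10.7% a TATA box match, 6.57% an AP-1 match and 5.21% an NF-kB match. No NF-kB match lay in the windows of the 8 genes, which says only that this consensus was not in these 250 bases.

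The targeted gene was lower in siPVT1, and the libraries were close in depth, with total counts from 28383171 to 35059576. PVT1 had between 3298 and 4090.5 normalized counts in siControl and between 2062 and 2349.7 in siPVT1, with a log2 fold change of −0.72 (SE 0.0967, adjusted p = 0.000342). SE is the standard error of a log2 fold change, and adjusted p-values come from the quasi-likelihood test of edgeR, with the adjustment of Benjamini and Hochberg over all genes tested. Normalized counts are counts scaled with edgeR's TMM factors to a common library size. The 9 SK-OV3 carcinoma markers were all tested, with summed normalized counts of 27123 to 30432 in siControl and 33047 to 36634 in siPVT1. Their median log2 fold change was −0.43, with KRT8, KRT18, KRT19 and PAX8 above 0 and EPCAM, KRT7, ERBB2, MUC16 and WT1 below 0. Of these, 1 (KRT19) was called higher and 1 (WT1) lower, where 21.5% of all genes tested were called. MUC16 ran from 17.9 to 635 normalized counts within siPVT1. Within siPVT1, replicate 3 stood further from the other libraries of its group (chi-square per degree of freedom of 46.3 and 20) than replicates 1 and 2 from each other (8.74), and pairs of siControl libraries gave between 1.72 and 5.7. Values without that replicate stand beside the results that turn on it. Values per library are given in the order of replicates 1, 2 and 3.

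The transcripts of the IL-1 agonists were abundant in SK-OV3 cells and higher in siPVT1, by 2.29-fold for IL1A and 7.00-fold for IL1B, while IL18 stayed within the spread of its libraries. The antagonist gene IL1RN was at 1 count or fewer in every library of both groups. The signalling receptor gene IL1R1 overlapped between the groups, its partner IL1RAP was 1.48-fold higher in siPVT1, and the decoy gene IL1R2 was lower at a level near the limit of detection. CASP1 was 1.27-fold higher, by an amount that varied between its siPVT1 libraries.

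**Figure D1:**
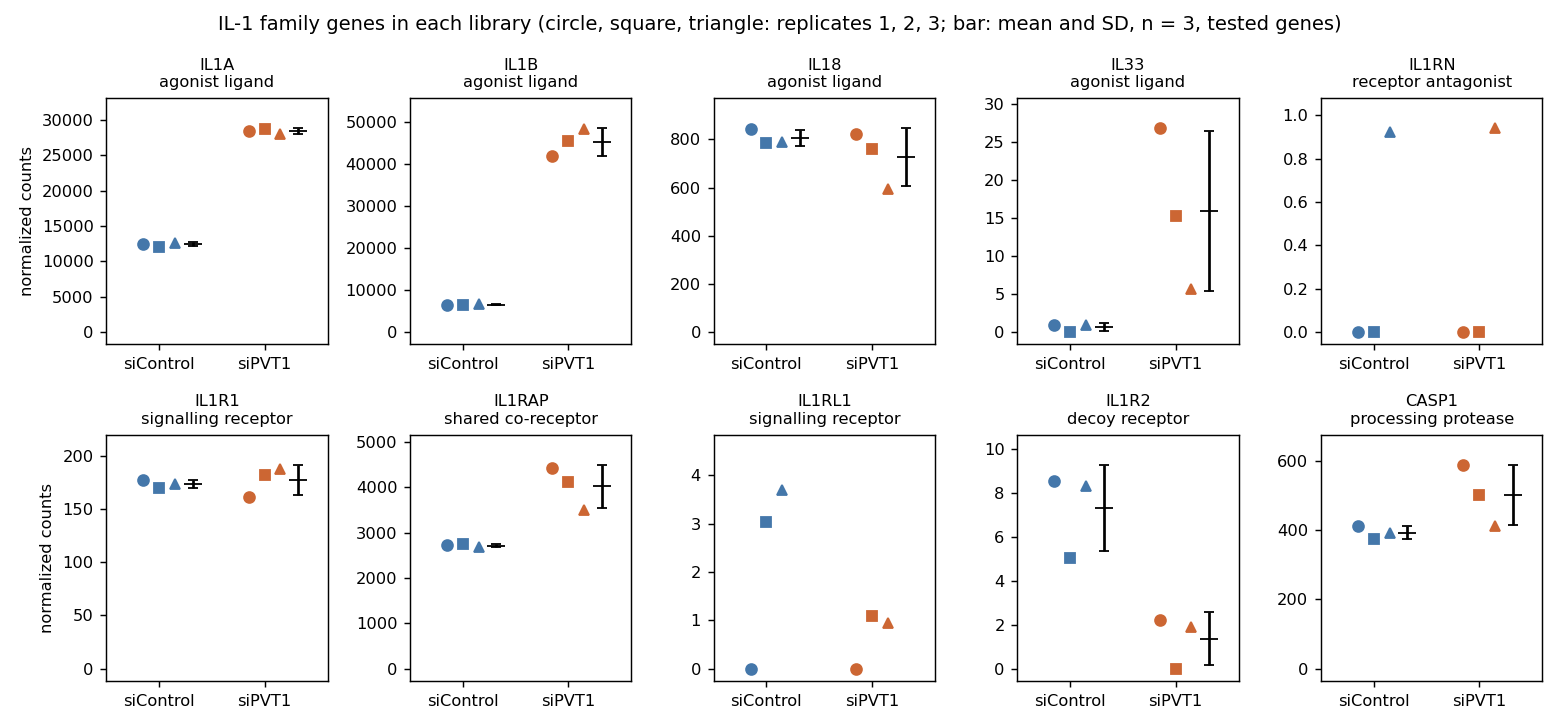
Normalized counts of the 10 IL-1 family genes in each library, with siControl in blue, siPVT1 in orange, a symbol for each replicate number and, for the 8 tested genes, a bar for the mean and SD of 3 libraries. The vertical axes differ between panels, IL1A and IL1B separate the groups by more than their spread, and IL1RN and IL1RL1 stay at or below 4 counts.

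IL1B, the precursor of secreted IL-1 beta, had 6463, 6319 and 6569.5 normalized counts in the siControl libraries and 41758, 45385 and 48289 in the siPVT1 libraries. The lowest siPVT1 library was far above the highest siControl library, and replicate 3 was the highest of the siPVT1 group. The means were 6451 ± 126 (SD, n = 3) and 45144 ± 3272 (SD, n = 3), a log2 fold change of 2.81 (SE 0.0709, 95% interval 2.64 to 2.97). Without siPVT1 replicate 3 it was 2.74.

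IL1A, which encodes IL-1 alpha, lies 45.3 kb from IL1B and had 12465.5, 12083.6 and 12619.9 normalized counts in the siControl libraries. In the siPVT1 libraries it had 28446, 28774 and 27987 normalized counts. The groups were separate and the libraries within each group lay close together, with a coefficient of variation of 2.23% in siControl and 1.39% in siPVT1. The means were 12389.6 ± 276 (SD, n = 3) and 28402 ± 396 (SD, n = 3), a log2 fold change of 1.20 (SE 0.0524, 95% interval 1.08 to 1.32).

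The order of IL1A and IL1B was exchanged between the groups. Per kilobase of the canonical transcript, the level of IL1B relative to IL1A was 0.694, 0.700 and 0.697 in the siControl libraries, so that IL1A was the higher in each. In the siPVT1 libraries the ratio was 1.96, 2.11 and 2.31, so that IL1B was the higher in each. The mean ratio was 0.697 ± 0.00299 in siControl and 2.13 ± 0.173 in siPVT1 (SD, n = 3 each), and with the longest annotated transcript, a choice made after the data were seen, it was 0.649 and 1.98. Together IL1A and IL1B made up 0.0628%, 0.0642% and 0.0643% of all counts in the siControl libraries. In the siPVT1 libraries they made up 0.213%, 0.228% and 0.232%.

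**Figure D2:**
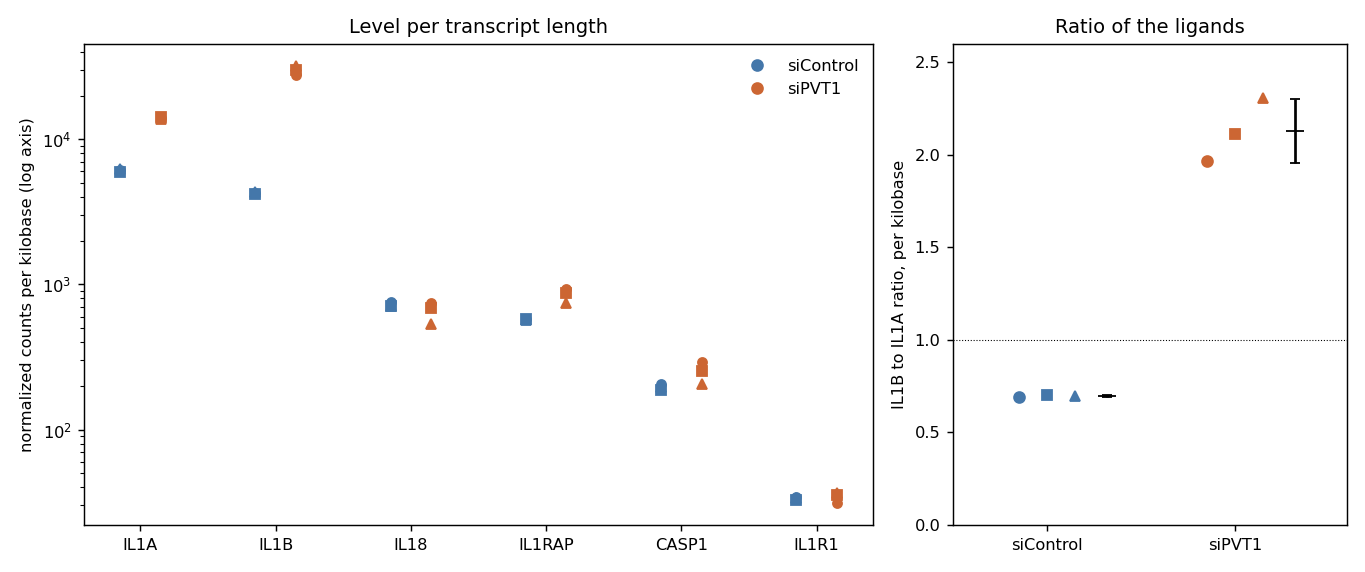
Left, normalized counts per kilobase of canonical transcript for 6 IL-1 family genes in each library, on a log axis. Right, the ratio of IL1B to IL1A per kilobase in each library with the mean and SD of 3 libraries, below 1 in all siControl libraries and above 1 in all siPVT1 libraries.

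Ranked by mean level per kilobase among 15808 genes with a length, IL1A stood 237th in siControl and 124th in siPVT1, and IL1B 346th and 55th. Levels per kilobase were 6143 ± 137 and 14081.5 ± 196 for IL1A and 4280.4 ± 83.4 and 29956 ± 2171 for IL1B (SD, n = 3, siControl and siPVT1). IL1A and IL1B were thus among the most abundant transcripts of these cells in both groups.

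IL18, whose precursor is also cut by caspase-1, had 843, 787 and 789 normalized counts in the siControl libraries and 824, 762 and 594 in the siPVT1 libraries. The groups overlapped, and siPVT1 replicate 3 was the lowest library. The log2 fold change was −0.15 (SE 0.119, 95% interval −0.43 to 0.12), and without siPVT1 replicate 3 it was −0.040. The log2 fold change of IL1A was 1.20, and the difference between IL1A and IL18 was not tested.

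IL33 encodes a nuclear alarmin and was close to the floor of these libraries in siControl, with raw counts of 1, 0 and 1 across its libraries. In the siPVT1 libraries it had raw counts of 24, 14 and 6. All siPVT1 libraries were above all siControl libraries, and they differed 4-fold from each other at raw counts, with replicate 3 the lowest. Summed over libraries, 2 counts stood against 44, a depth-adjusted ratio of 23.9 with an exact binomial 95% interval of 6.23 to 203, which covers counting error only. The fitted log2 fold change was 4.36 (SE 0.881), a value that depends on the prior count added to such low counts. IL33 passed the filter on low counts only through its siPVT1 libraries, and without any 1 of the 3 it no longer passed.

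IL1RN, the gene of the receptor antagonist, had raw counts of 0, 0 and 1 in siControl and 0, 0 and 1 in siPVT1. Both groups were at or under 3 counts in every library, so that no fold is given and a difference was not detectable at this depth. IL1A and IL1B, which lie in the same cluster, had 6319 or more normalized counts in the same libraries.

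Of the receptors, IL1R1 was low and overlapped between the groups. It had 177, 170 and 174 normalized counts in the siControl libraries and 161, 182 and 188 in the siPVT1 libraries. In siPVT1 the libraries lay on both sides of siControl, with siPVT1 replicate 1 the lowest and siPVT1 replicate 3 the highest of the 6 libraries. The log2 fold change was 0.032 (SE 0.104, 95% interval −0.21 to 0.27) and its sign changed without siPVT1 replicate 2 or 3 and with scaling by the total count. The antisense gene IL1R1-AS1 within it had 0 counts in every library.

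IL1RAP, the co-receptor that IL1R1 and IL1RL1 share, had 2724.5, 2744 and 2679.7 normalized counts in the siControl libraries. In the siPVT1 libraries it had 4429, 4126 and 3508.5 normalized counts. The groups did not overlap, and siPVT1 replicate 3 lay nearest to siControl. The means were 2716 ± 32.9 (SD, n = 3) and 4021 ± 469 (SD, n = 3), a log2 fold change of 0.57 (SE 0.0869, 95% interval 0.37 to 0.77), or 0.64 without that replicate.

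The IL1RAP transcript was in excess over that of IL1R1 in every library, and the proteins were not measured. Per kilobase, IL1RAP stood at 16.8, 17.7 and 16.9 times the level of IL1R1 in the siControl libraries and at 30.0, 24.7 and 20.4 times in the siPVT1 libraries. Each siPVT1 ratio was above each siControl ratio, with means of 17.1 ± 0.480 and 25.0 ± 4.79 (SD, n = 3 each).

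IL1R2, the decoy receptor, had raw counts of 9, 5 and 9 in the siControl libraries and 2, 0 and 2 in the siPVT1 libraries. No siPVT1 library reached the lowest siControl library, at counts where a single read matters. Summed over libraries, 23 counts stood against 4, a depth-adjusted ratio of siControl to siPVT1 of 5.30 (exact binomial 95% interval 1.81 to 21.1, counting error only). The fitted log2 fold change was −2.30 (SE 0.678). IL1R2 passed the filter only through siControl, and it was past both thresholds in edgeR and not in DESeq2.

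IL1RL1, the receptor of IL-33, had raw counts of 0, 3 and 4 in siControl and 0, 1 and 1 in siPVT1 and was not tested. Summed, 7 counts stood against 2, a depth-adjusted ratio of siPVT1 to siControl of 0.310 whose interval, 0.0314 to 1.63, holds 1. IL1RL1 overlaps IL18R1 on the same strand, and Salmon divides reads between such genes by estimation. The ligand IL33 and its receptor were thus both near the floor in siControl.

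CASP1, the protease of the family, had 410.4, 374 and 392 normalized counts in the siControl libraries and 586, 501.5 and 412.5 in the siPVT1 libraries. The groups did not overlap, but siPVT1 replicate 3 was only just above siControl replicate 1. The means were 392 ± 18.3 (SD, n = 3) and 500 ± 86.6 (SD, n = 3), a log2 fold change of 0.35 (SE 0.129, 95% interval 0.053 to 0.64). It was 0.46 without siPVT1 replicate 3 and 0.20 without siPVT1 replicate 1 or with scaling by the total count. CARD16, a near-identical copy of the first part of CASP1 that lies 6.08 kb away, could share its reads, and had a log2 fold change of 0.94 (SE 0.184).

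By level per kilobase the siControl order was IL1A, IL1B, IL18 (723 ± 28.4), IL1RAP (572 ± 6.93), CASP1 (196 ± 9.18) and IL1R1 (33.5 ± 0.715), followed by IL1R2 (5.0 ± 1.34), IL1RL1 (1.12 ± 0.986), IL33 (0.233 ± 0.202) and IL1RN (0.181 ± 0.313). In siPVT1 the order was IL1B, IL1A, IL1RAP (847 ± 98.8), IL18 (652 ± 107), CASP1 (250.5 ± 43.4), IL1R1 (34.2 ± 2.69), IL33 (5.92 ± 3.93), IL1R2 (0.936 ± 0.820), IL1RL1 (0.339 ± 0.296) and IL1RN (0.184 ± 0.318). These are means ± SD of 3 libraries. The exchange of IL18 and IL1RAP rested on the transcript chosen, since with the longest transcript IL1RAP was the higher in both groups (500.2 against 475 in siControl and 741 against 428 in siPVT1). In siPVT1 the highest IL18 library and the lowest IL1RAP library both rounded to 739 per kilobase. In siControl the last 3 genes did not differ beyond their spread, and in siPVT1 neither did IL1R2, IL1RL1 and IL1RN.

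Across the family, 8 of the 10 genes passed the filter on low values, 5 or more normalized counts in 3 or more libraries. Of these 8, IL1A, IL1B and IL33 were past both thresholds as higher and IL1R2 as lower, where both thresholds means an adjusted p under 0.05 together with a log2 fold change of 1 or more in size. Among all 19008 genes tested, 21.5% were past both thresholds, 11.8% as higher and 9.64% as lower. By the adjusted p-value alone 6 of the 8 passed, against 57.9% of all genes, and in 6 of the 8 the groups did not overlap, against 65.6% of all genes. CASP1 passed the adjusted p-value only narrowly. It missed that threshold in several alternatives, among them scaling by the total count and leaving out any 1 siControl library, and passed it in others. The median log2 fold change of the 8 was 0.46, against 0.0014 for all genes tested. The members were chosen with this comparison known and 2 of the 8 passed the filter through 1 group alone, so nothing is read from these counts.

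**Figure D3:**
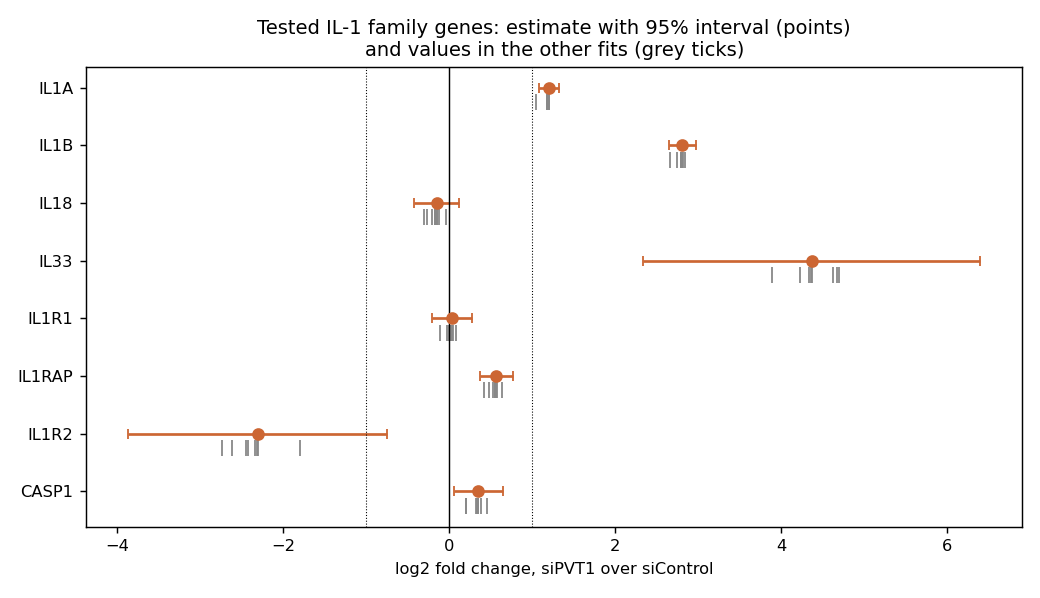
Log2 fold change (siPVT1 over siControl) of the 8 tested IL-1 family genes with its 95% interval, and grey ticks for the values in the alternative fits and with 1 library left out. Dotted lines mark a log2 fold change of −1 and 1, and the ticks of IL1A and IL1B stay above 1 while those of IL1R1 lie on both sides of 0.

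The log2 fold change of IL1B (2.81, SE 0.0709) was larger than that of IL1A (1.20, SE 0.0524), its neighbour on the same strand, and the difference was not tested. IL18 and IL1R1 had intervals that hold 0 and IL1RAP and CASP1 had intervals between 0 and 1. siPVT1 replicate 3 had the highest IL1B and IL1R1 of its group and the lowest IL1A, IL18, IL33, IL1RAP and CASP1.

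The genes of the other ligands and receptors of the family were mostly near the floor. IL36G, the gene of IL-36 gamma, was the 1 of 6 other ligand genes that was tested, with raw counts of 4, 1 and 5 in siControl and 13, 10 and 24 in siPVT1. It passed the filter only through siPVT1, so that its fitted log2 fold change of 2.29 (SE 0.518) is given as a description. It is the nearest tested gene on the far side of IL1B, 136 kb away. Of 7 other receptors and soluble binders, 4 were tested and 1 was called higher, where 11.8% of all genes were. That gene was IL1RAPL1, a receptor-like gene of the family (log2 fold change 1.13, SE 0.140, adjusted p = 0.000222, edgeR quasi-likelihood test). SIGIRR, which restrains IL-1 signalling, had 207, 189 and 206 normalized counts in siControl and 443, 422 and 327 in siPVT1, with a log2 fold change of 0.98 just under the fold threshold (SE 0.129, adjusted p = 0.00031, same test). IL18R1, the receptor of IL-18, had a log2 fold change of −0.24 (adjusted p = 0.284), and IL18BP, which binds free IL-18, one of 0.13 (adjusted p = 0.476, same test). IL18RAP, the co-receptor for IL-18, had at most 2 counts in a library.

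Of 14 genes of receptor signalling, all tested, 2 were called higher and 0 lower. By the adjusted p-value alone from the edgeR quasi-likelihood test, 5 were higher and 3 lower. These counts stand beside 21.5% called and 57.9% by the adjusted p-value alone over all genes tested, and nothing particular to the list is read from them. IRAK2 rose (log2 fold change 1.19, SE 0.0902, adjusted p = 1.74e-05), as did PELI2, a ubiquitin ligase of the IRAK complex (1.58, SE 0.155, adjusted p = 6.34e-05, same test). IRAK1 was lower and short of the fold threshold (−0.93, SE 0.0687, adjusted p = 1.59e-05, same test), and IRAK4, which phosphorylates IRAK1, had a log2 fold change of 0.29 (adjusted p = 0.0173). The adaptor MYD88 (−0.28, adjusted p = 0.0526, same test) and TRAF6 (0.00073, adjusted p = 0.994) did not pass.

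Of 18 genes of the inflammasome and of ligand release, 10 were tested, 1 was called higher and 0 lower, and by the adjusted p-value alone from the edgeR quasi-likelihood test 8 were higher and 1 lower. The same shares of all genes, 21.5% and 57.9%, apply here. The called gene was MEFV, the gene of pyrin, with raw counts of 9, 5 and 16 in siPVT1 and 3 in each siControl library. It too passed the filter only through siPVT1, and its fitted log2 fold change of 1.79 (SE 0.504) is a description. The sensor NLRP3 had a log2 fold change of 0.61 (SE 0.101, adjusted p = 0.00107), CASP4 one of 0.51 (SE 0.104, adjusted p = 0.0032) and GSDMD, the pore protein through which IL-1 beta can leave a cell, one of 0.47 (SE 0.0758, adjusted p = 0.0009, same test). PYCARD, the adaptor that links NLRP3 to caspase-1, had raw counts of 0, 1 and 0 in siControl and 0 in each siPVT1 library. In the same libraries CASP1 had 374 or more normalized counts.

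Of 16 genes known to respond to IL-1, all tested, 13 were called higher, where 11.8% of all genes were, and 0 lower, and the median log2 fold change was 1.67. The 5 with the smallest p-values were SOD2 (2.68, SE 0.0697, adjusted p = 2.9e-07), ICAM1 (3.39, SE 0.111, adjusted p = 5.98e-07), CSF2 (5.31, SE 0.181, adjusted p = 7.04e-07), NFKBIZ (1.35, SE 0.0547, adjusted p = 1.27e-06) and CSF3 (2.63, SE 0.140, adjusted p = 3.45e-06, all from edgeR quasi-likelihood test). SOD2 is a mitochondrial dismutase, ICAM1 an adhesion receptor for leukocytes, CSF2 and CSF3 colony-stimulating factors and NFKBIZ a cofactor of NF-kB. The study displayed several of these genes, among them IL6, CSF2, CSF3, ICAM1 and SOD2, as changed in these libraries, as it did IL1B. The list was also written with earlier results of these data known, so the direction of its genes is not independent evidence. The NF-kB pathway has many inducers besides IL-1, and neither its activity nor the action of any inducer was measured.

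**Figure D4:**
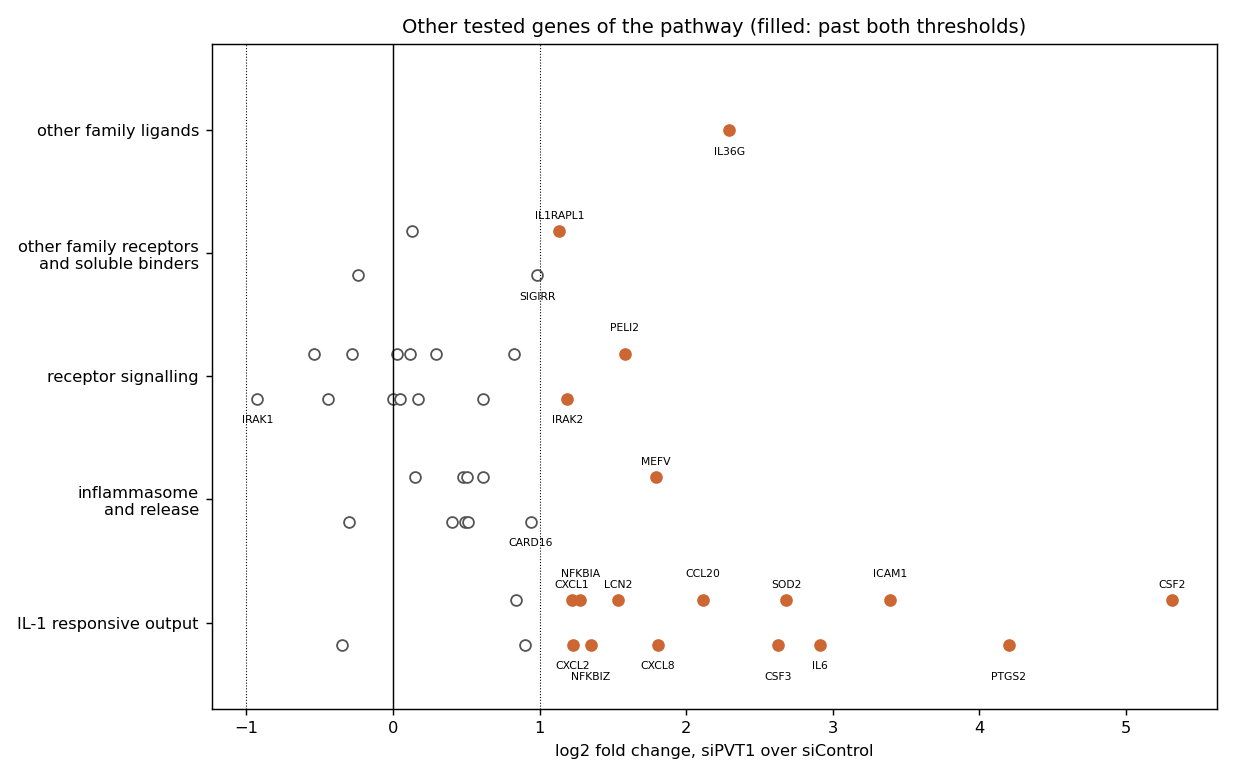
Log2 fold change (siPVT1 over siControl) of the 45 tested genes in 5 lists around the IL-1 family, with a filled point for a gene past both thresholds. In the list of IL-1 responsive genes 13 of 16 points are filled, and in the other 4 lists 5 points are.

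Over the 5 lists, 45 of 61 genes were tested, 18 were called higher and 0 lower, and the median log2 fold change was 0.82. The lists were written with earlier results of these data known, so these counts are a description. Over all genes tested 11.8% were called higher and 9.64% lower. IL36G and MEFV, among the 18, were tested through siPVT1 alone. With scaling by the total count 17 were called higher and 1 lower. With siPVT1 replicate 1 left out 14 were called, the lowest count when any 1 library was left out.

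The genes next to the members are given as a description. Genes that overlap a member were not taken as its neighbours, so that IL18R1, which overlaps IL1RL1, stands here as the neighbour of IL1R1. Between or beside the members lay 14 other nearest tested genes, of which 1 was called higher (IL36G), 3 lower and 10 neither. Over all genes tested 11.8% were called higher and 9.64% lower, and nothing particular to the neighbours is read from these counts. IL36G passed the filter only through siPVT1. CKAP2L, 9.26 kb from IL1A, had a log2 fold change of 0.81 (SE 0.140, adjusted p = 0.00139, edgeR quasi-likelihood test), and PSD4, 23.3 kb beyond IL1RN, one of −0.16 (adjusted p = 0.22, same test). LINC01127, a noncoding gene 4.79 kb from IL1R2, had mean normalized counts of 8.27 in siControl and 1.42 in siPVT1, and like IL1R2 it passed the filter only through siControl. Its fitted log2 fold change of −2.47 (SE 0.531) is a description. The other called neighbours were SLC9A2, 268 kb from IL1RL1, and UTS2B, 607 kb from IL1RAP, with log2 fold changes of −2.0 and −1.55. Around the members on other chromosomes, SDHD and BCO2 beside IL18 had log2 fold changes of −0.48 and −0.24, RANBP6 and SELENOTP1 beside IL33 had −0.31 and −0.44, and CLDN16 beside IL1RAP had 0.95.

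Genes used as markers of other cells that express IL-1 genes were counted in the same libraries. The samples are labelled as 1 cell line, so these counts are not read as numbers of other cells. Of 12 myeloid and leukocyte markers, 4 were tested, 2 were called lower, where 9.64% of all genes were, and 0 higher. ITGAM had a log2 fold change of −4.06, CD14, which passed the filter only through siControl, −1.42, LYZ −1.25 (adjusted p = 0.415, edgeR quasi-likelihood test) and CSF1R 0.22 (adjusted p = 0.57, same test). TYROBP, CD3E and MS4A1 had 0 counts in every library, the pan-leukocyte gene PTPRC had at most 2, and the summed list ran from 236 to 468 normalized counts in siControl and from 56.8 to 125 in siPVT1. The lower sum in siPVT1 rested on ITGAM, since without it the sums ran from 49 to 281 in siControl and from 44.5 to 117 in siPVT1 and overlapped. The upper ends of these ranges were mostly LYZ in replicate 2, with 249 normalized counts in siControl and 86.3 in siPVT1. LYZ had 18.1 or fewer in the other libraries. The part of these markers in the values of the IL-1 family was not tested. Of 8 endothelial and fibroblast markers 7 were tested and 6 were called higher, where 11.8% of all genes were. Among the 6 were PECAM1, CDH5, COL1A1, PDGFRB and VWF. LUM had a log2 fold change of −1.15 with overlapping groups (adjusted p = 0.132, edgeR quasi-likelihood test), and DCN had at most 1 count. Their sum ran from 2278 to 2331 normalized counts in siControl and from 9462 to 11744 in siPVT1, and its part in the values of the IL-1 family was not tested.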

How the data were processed

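RNA of 6 SK-OV3 samples, 3 siControl and 3 siPVT1 grouped by their labels, was sequenced from single-end mRNA libraries. The authors aligned the reads with STAR, quantified them with Salmon against GENCODE on GRCh38 and deposited unnormalized estimated counts for each gene symbol, written as whole numbers. The submitters' processing notes name bcl2fastq 2.20.0, STAR 2.7.3a, Salmon 0.14.1 and DESeq2 1.28.1, and the strand setting is not given in the sources used here. Total counts per library ran from 28383171 to 35059576, and the floor was set at 3 counts per library.

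Counts were tested with edgeR 4.0.16 in R 4.3.3 (TMM normalization, quasi-likelihood test, siRNA as the only term) in the 19008 genes that had 5 or more normalized counts in 3 or more libraries. Calls needed a p-value under 0.05 after the adjustment of Benjamini and Hochberg, together with a log2 fold change of 1 or more in size. The standard error was taken as the size of the log2 fold change over the square root of F. The test was checked on simulated data. Intervals of low counts cover counting error only, and molecules were not identified. Levels per kilobase used canonical transcript lengths of GENCODE v44, in which 37819 of 59653 symbols matched 1 gene.

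The members and lists were chosen with earlier results of these data known. The genes named are the 10 members, PVT1, the nearest tested genes and, of each list, every tested gene where 6 or fewer were tested, otherwise the 5 called genes with the smallest p-values and genes central to the pathway. Further marker genes with 0 or few counts, LUM and the carcinoma markers that were not called were named after their values were seen. As alternatives, DESeq2 1.42.0 was run, TMM was replaced by the size factors of DESeq2 or by the total count, the filter was dropped or set by filterByExpr, a replicate block was added, single libraries were left out and the fold threshold was dropped.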

Additional observations from a re-analysis of the deposited data

How the results depend on the processing

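Over the 12 alternatives the log2 fold change of IL1A ran from 1.05 to 1.20 and that of IL1B from 2.66 to 2.85. The members were chosen on these same counts, so calls of members in these fits describe the processing only and are no support. IL33 and IL1R2 rest on few counts. IL33 was not tested without any 1 siPVT1 library, IL1R2 without any 1 siControl library, and neither under filterByExpr, which left 2 of the 10 genes past both thresholds since fewer low genes are tested. IL1R2 kept its direction and missed the adjusted p-value in DESeq2 (log2 fold change −2.42), which left 3 genes. The log2 fold change of IL1R1 was −0.12 with scaling by the total count and between −0.029 and 0.080 without 1 library. That scaling moved the all-gene median of log2 fold changes from 0.0014 to −0.15 and the share of called genes that were higher from 55.1% to 43.8%, and the cause was not tested. The log2 fold changes of IL1RAP lay between 0.42 and 0.64, of CASP1 between 0.20 and 0.46 and of IL18 between −0.30 and −0.040. The longest transcript gave a ratio of IL1B to IL1A of 0.649 in siControl.

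With 1 library left out, 3507 to 4239 genes, 14 to 19 genes of the 5 lists around the family and 3 of the 10 genes were called. The adjusted p-value alone called 11007 genes and 35 of the lists, since it drops the fold threshold. Deviations of same-numbered libraries from their group means correlated at −0.037, 0.0287 and 0.00227, and not every library correlated best with its own number. The libraries of replicate 2 did correlate best with each other. With 3 libraries in a group, these correlations cannot settle whether the replicate numbers pair the libraries. With the replicate number as a block, 3924 genes, 17 genes of the lists and 4 of the 10 genes were called. Depth limits what can be said of IL1RN, IL1RL1, IL33 and IL1R2.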
